A study of Mus musculus with 30 samples.

Results

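The cells described here were 13 single cells labelled *Prdm14* (+/-) and taken as primordial germ cells (PGCs), out of 30 single cells in the series. Both classes below were chosen by one measured value, the deposited log2 level of the *Dppa3* probe set. A value of 12 or above put 7 cells in a high *Dppa3* class, and a value below 10 put 6 cells in a low *Dppa3* class. The values that made this split were 13.06, 12.92, 12.70, 12.61, 12.40, 12.21 and 12.12 in the high class, and 9.85, 9.03, 8.07, 4.21, 0 and 0 in the low class. No cell lay between 9.85, the highest value of the low class, and 12.12, the lowest of the high class. The split is therefore a description of *Dppa3*, and the question was which other genes differed between these 2 kinds of cells of one genotype label.

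*Dppa3* (also called Stella or PGC7) is a maternal factor and an early mark of mouse PGCs. PGCs arise among posterior epiblast cells under BMP and WNT signals, when *Prdm1*, *Prdm14* and *Tfap2c* are switched on, somatic mesoderm genes such as the *Hox* genes are turned off, and pluripotency genes such as *Sox2* are regained. The same transition lowers the machinery of DNA methylation, *Dnmt3b* and *Uhrf1* included, and *Dppa3* comes on while these cells gather at the base of the allantois.

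The animals were C57BL/6 mice from matings of *Prdm14* (+/-) parents, and embryos at E7.25 to E7.5 were dissected at the early-to-mid bud stage of the allantois. Single cells were picked at random with a glass capillary and their cDNA was amplified. Those with *Prdm1* cDNA by PCR were taken as PGCs, and each was hybridised to 1 Affymetrix 430 2.0 array of the mouse genome. Besides the 13 heterozygous cells there were 13 labelled WT and 4 labelled KO, and the heterozygotes carry 1 disrupted *Prdm14* allele throughout the embryo. The labels name no embryo for any cell, so cells that share an embryo cannot be told apart from cells that do not. Each class is then a single sample and the differences below come without a test. An SD below describes the spread between cells only, and the number of arrays limits the precision of every value.

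Levels are model-based expression indices (MBEI) on the log2 scale. In the 13 cells between 60.7% and 69.6% of probe sets were listed at 0, so values under 6 (64 MBEI) were set to a floor of 6, below which values have no order. A difference is the mean of the high class minus that of the low class, in floored log2 units, and it understates the distance from a class that lies at the floor. The transcript of *Prdm14*, the targeted gene, went against the labels, with 4 of 4 cells labelled KO but only 6 of 13 labelled WT above the floor. Where its probe set lies relative to the disrupted part was not examined. The high class held 5 cells of array run 2 and 2 of run 3, and the low class 2 cells of run 2 and 4 of run 3, so the class was uneven across runs and each difference is also given within both runs where it matters. The share of probe sets above 0 was 34.8% ± 3.02 (SD, n = 7) in the high class and 38.0% ± 1.39 (SD, n = 6) in the low class, with the lowest shares, 30.4%, 31.2% and 34.3%, in the high cells 66, 91 and 119. *Xist*, the RNA that coats the inactive X chromosome, was above the floor in 6 of 6 low cells and in 4 of 7 high cells, and the Y-linked gene *Eif2s3y* in 2 of the other high cells. The part that depth, run or sex had in the differences below was not tested.

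The high and low cells differed in many genes, more of them lower than higher in the high class. Of 9747 genes above the floor in at least 3 of the 13 cells, 153 (1.57%) were higher by at least 2 in the high class, which is a factor of 4 in MBEI, and 308 (3.16%) were lower by as much. In 30 genes (0.308%) every high cell lay above every low cell, and in 56 (0.575%) every high cell lay below every low cell. The median difference over all 9747 genes, called tested genes below although no p-value was computed, was -0.10. Of the 153 higher genes 142 had the same sign in both runs, as had 287 of the 308 lower genes. These genes were chosen by their difference over the same cells, so most of this agreement comes with the choice. Over all 9747 genes the differences in the 2 runs had a correlation of 0.17.

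The low cells were also more alike than the high cells. Over the genes tested, pairs of low cells had a mean correlation of 0.69, pairs of high cells 0.61 and mixed pairs 0.61. The cell most like each low cell was another low cell for 6 of 6. For the high cells it was another high cell for 5 of 7, and the exceptions were cell 88, nearest to low cell 97, and cell 119, nearest to low cell 76. Only 5 of the 13 cells had their closest cell in their own run.

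Of 11 tested germ cell genes, the 4 genes *Prdm14*, *Kit*, *Dnd1* and *Epcam* were higher by at least 2 in the high class, beside 1.57% of all tested genes. None of the 11 was lower by as much, beside 3.16% of all tested genes, and their median difference was 1.25. *Prdm14* ranged from 9.92 through a median of 11.15 to 11.79 in the high cells and from 0 through a median of 8.33 in the low cells. Only 1 low cell passed the lowest high cell, and the difference was 2.98, with 2.92 in run 2 and 2.65 in run 3. *Prdm1*, the first determinant of the lineage and the gene by which all cells were picked, was above the floor in all 13 cells, with 10.93 ± 1.03 (SD, n = 7) in the high class and 9.40 ± 1.30 (SD, n = 6) in the low class.

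*Kit*, the receptor tyrosine kinase for stem cell factor on PGCs, separated the classes completely, as did 0.308% of all tested genes in that direction. It lay between 10.83 and 12.44 in the high cells, with a median of 11.57, and between 3.85 and 10.56 in the low cells, with a median of 9.38. The difference of 2.59 was uneven between runs, 0.88 in run 2 and 3.78 in run 3. *Dnd1*, an RNA-binding protein that PGCs need to survive, lay between 9.78 and 12.37 in the high cells and was above the floor in 3 of 6 low cells, where it reached 11.28. Its difference was 3.11, with 5.65 in run 2 and 1.24 in run 3.

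The other germ cell genes differed less. *Tfap2c*, the transcription factor that acts with *Prdm1* and *Prdm14*, had means of 10.73 and 9.57 and changed direction between runs, from 3.25 in run 2 to -1.31 in run 3, where high cell 119 lay at 5.76. *Ifitm3* (Fragilis), a membrane protein of early PGCs, was 13.20 ± 0.22 (SD, n = 7) in the high class and 11.96 ± 0.92 (SD, n = 6) in the low class. *Alpl*, the alkaline phosphatase used to stain PGCs, differed by 0.77. *Lin28a*, a translational and let-7 regulator, went the other way, with 10.07 ± 1.31 (SD, n = 7) in the high class and 11.50 ± 0.37 (SD, n = 6) in the low class. Over all 13 measured genes, the germ cell score, the mean of their levels in a cell, was 10.53 ± 0.32 (SD, n = 7) in the high class and 9.27 ± 0.92 (SD, n = 6) in the low class. The scores of the classes overlapped, from 9.96 to 10.81 and from 8.13 to 10.19.

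**Figure D1:**
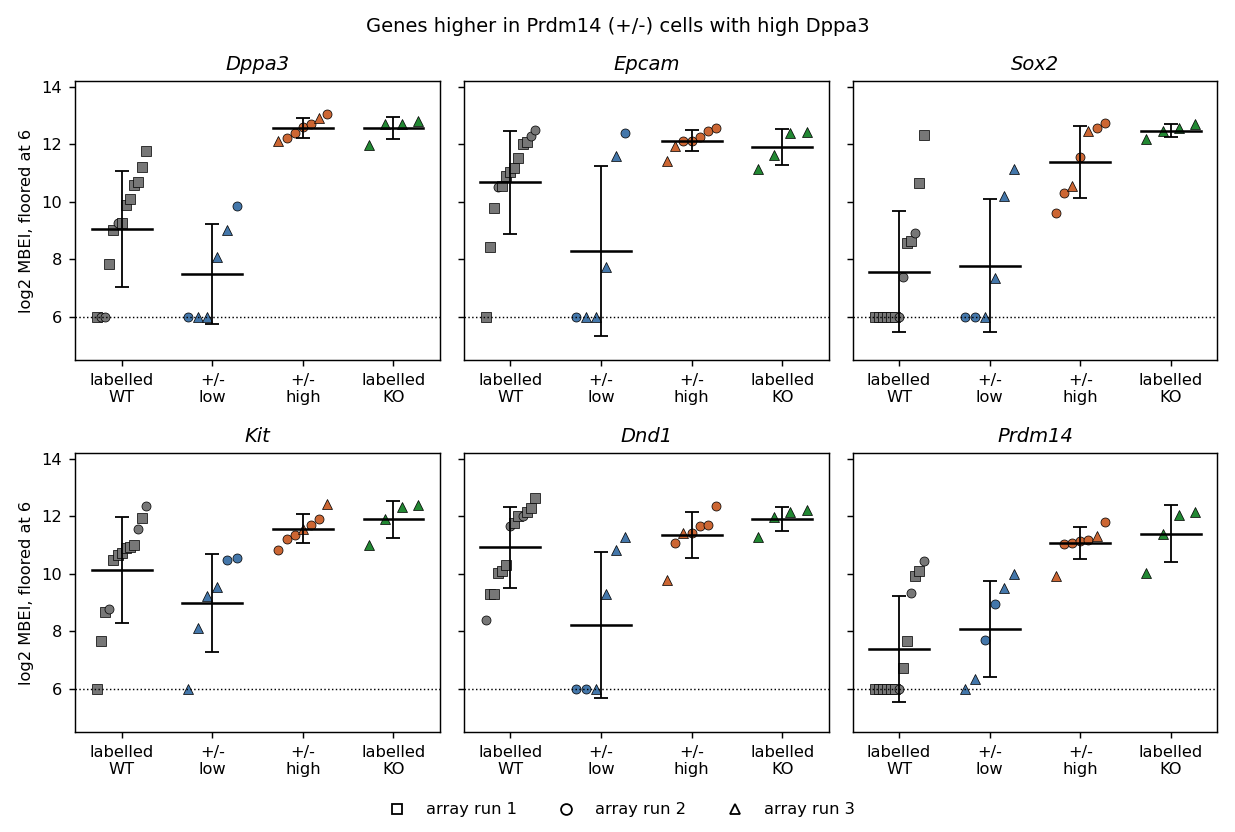
Level of 6 genes in each of the 30 cells (log2 MBEI, values below 6 drawn at the dotted floor of 6), by genotype label and, for *Prdm14* (+/-), by *Dppa3* class. Symbols mark the array run, and each horizontal line with its bar is a mean with the SD over cells; *Dppa3* chose the classes, *Kit* lies above 10.83 in every high cell and below that in every low cell, and *Sox2* is at the floor in 3 of 6 low cells.

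The 12 probe sets with the largest higher values in the high class, under the rule that both runs had to differ the same way, were those of *Epcam*, *Cldn5*, *Sox2*, *Peli2*, *Pla2g10*, *Ddx58*, *St14*, *Penk*, *Nsrp1*, *Abcg1*, *S100pbp* and *Slc40a1*, with differences from 3.15 to 3.84. *Epcam*, an epithelial adhesion molecule that marks early PGCs, lay between 11.44 and 12.56 in all 7 high cells. In the low cells it was 12.40, 11.59 and 7.75 in the 3 cells with *Dppa3* from 8.07 to 9.85, and listed at 0 in the 3 cells with *Dppa3* under 6. *Cldn5*, a tight junction claudin best known from endothelium, was listed at 0 in 6 of 6 low cells, and it was above the floor in 6 of 7 high cells, with a median of 10.39 and a highest value of 11.55. *Pla2g10*, *Ddx58*, *Penk* and *Abcg1* were likewise at the floor in every low cell, so the sizes of these 5 depend on the floor.

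Among the rest, *St14*, the membrane serine protease matriptase that acts on epithelial surfaces and on EpCAM, was 10.38 ± 0.93 (SD, n = 7) against 7.03 ± 1.63 (SD, n = 6). *Slc40a1*, the iron exporter ferroportin, was 10.23 ± 1.28 (SD, n = 7) against 7.08 ± 1.21 (SD, n = 6). *Ddx58*, the RIG-I sensor of viral RNA, reached 11.24 and *Pla2g10*, a secreted phospholipase, 11.79. *Penk*, the proenkephalin precursor, was above the floor in 6 of 7 high cells, and *Abcg1*, a cholesterol transporter, in 6 of 7. *Peli2*, an E3 ubiquitin ligase of Toll-like receptor signalling, was the only gene of the 12 in which the classes did not overlap, with 9.83 ± 0.65 (SD, n = 7) against 6.23 ± 0.57 (SD, n = 6). Its 3 probe sets disagreed, however, and the brightest of them gave 9.26 and 8.67, a difference of 0.59 that was 2.12 in run 2 and -1.03 in run 3. Read from the brightest probe set of each gene, *Peli2* would leave the 12 and *Dnd1*, with 3.11, would enter.

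Pluripotency genes past 2 were *Sox2* and *Gdf3* of 6 tested core genes and *Klf2*, *Esrrb* and *Dppa5a* of 8 tested naive ones. *Sox2*, the transcription factor that partners OCT4 and that PGCs regain, was above the floor in 7 of 7 high cells, from 9.60 through 11.56 to 12.73, and in 3 of 6 low cells, at 11.13, 10.21 and 7.37. The difference was 3.61, with 5.35 in run 2 and 2.83 in run 3. *Klf2*, a factor of the naive state, was listed at 0 in all 6 low cells and reached from 10.01 to 11.52 in 4 high cells, with a difference of 2.90. *Esrrb*, a nuclear receptor without a known hormone, was at the floor in 6 of 6 low cells and above it in 4 of 7 high cells, and *Dppa5a*, an RNA-binding protein of pluripotent cells, differed by 2.53. Of 8 naive pluripotency genes tested these 3 were higher by at least 2, beside 1.57% of all tested genes, and 0 were lower by as much. *Klf2* and *Esrrb* counted as tested only through the high cells and could only be higher. The count is therefore partly set by the filter. The scores of all 12 measured, which include these genes, did not overlap. They ran from 7.45 to 8.24 in the high class and from 6.51 to 7.22 in the low class. *Tbx3*, another member, differed by -1.93 and was above the floor in 1 of 7 high and 5 of 6 low cells.

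The core factors of the epiblast differed little. *Pou5f1* (OCT4) was 11.59 ± 0.62 (SD, n = 7) in the high class and 10.76 ± 1.35 (SD, n = 6) in the low class, and *Sall4* was 12.36 and 12.45. *Nanog* ranged from 7.72 to 11.65 in the high cells, and among the low cells it lay above 11 in the 3 with *Dppa3* from 8.07 to 9.85 and was listed at 0 in 2 of the others. *Gdf3*, a TGF-beta family ligand encoded beside *Dppa3*, differed by 2.47, with 9.16 and 6.68. Of the 4 tested genes from the chromosomal neighbourhood of *Dppa3*, *Gdf3* was the only 1 that was higher by at least 2, and *Slc2a3*, the glucose transporter GLUT3, was 13.24 and 12.85.

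The genes that were lowest in the high class included *Gja1*, *Igfbp4*, *Spin2c*, *Gm12338*, *Podxl*, *Wnt5b* and *Sec14l1*. Of the 12 probe sets with the largest lower values, several were for *Gja1* and *Igfbp4*. With 1 probe set for each gene, *Apela*, *Pdgfrb*, *Morc4*, *Nefm* and *Myc* completed 12 genes with differences from -4.78 to -3.65, and these 5 were added after their values were seen. *Gja1*, a connexin that forms gap junctions, lay between 10.87 and 12.35 in all 6 low cells, with a median of 11.48. It was at the floor in 6 of 7 high cells, and the exception was cell 119 at 10.69. The difference was -4.78, with -5.26 in run 2 and -3.20 in run 3, and 5 of its 6 probe sets were lower, with the other at the floor throughout.

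*Igfbp4*, a secreted protein that binds insulin-like growth factors, lay between 8.80 and 12.42 in the low cells and no higher than 7.47 in the high cells, a difference of -4.45. *Podxl*, the sialomucin podocalyxin of epithelial surfaces, was listed at 0 in 7 of 7 high cells, and in the low cells it had a median of 10.52 with 1 cell at 0. *Wnt5b*, a non-canonical WNT ligand, did not overlap between classes, with a highest high cell of 8.48 and a lowest low cell of 9.17. *Sec14l1*, a lipid-binding protein, did not overlap either, with 7.82 and 9.01 at the edges.

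*Myc*, the growth-promoting transcription factor, was listed at 0 in 6 of 7 high cells and lay between 7.03 and 12.33 in the low cells. *Apela*, the peptide ligand Elabela of the apelin receptor, was listed at 0 in 6 of 7 high cells, cell 119 again being the exception at 10.51, and it was 10.55 ± 1.10 (SD, n = 6) in the low class. *Pdgfrb*, a growth factor receptor of mesenchyme, and *Morc4*, an ATPase bound to chromatin, were at the floor in every high cell and above it in 5 of 6 low cells. *Nefm*, a neurofilament subunit, was above the floor in 2 of 7 high cells and in 6 of 6 low cells. *Gm12338*, a predicted gene, behaved differently from the rest, with 12.80 to 12.92 in 3 high cells, 0 in the other 4, and 12.96 to 13.15 in the low cells. It was 12.92 to 13.10 in the 13 cells labelled WT and 12.89 to 13.11 in the 4 labelled KO. Its difference thus rests on 4 arrays listed at 0, with no value between.

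**Figure D2:**
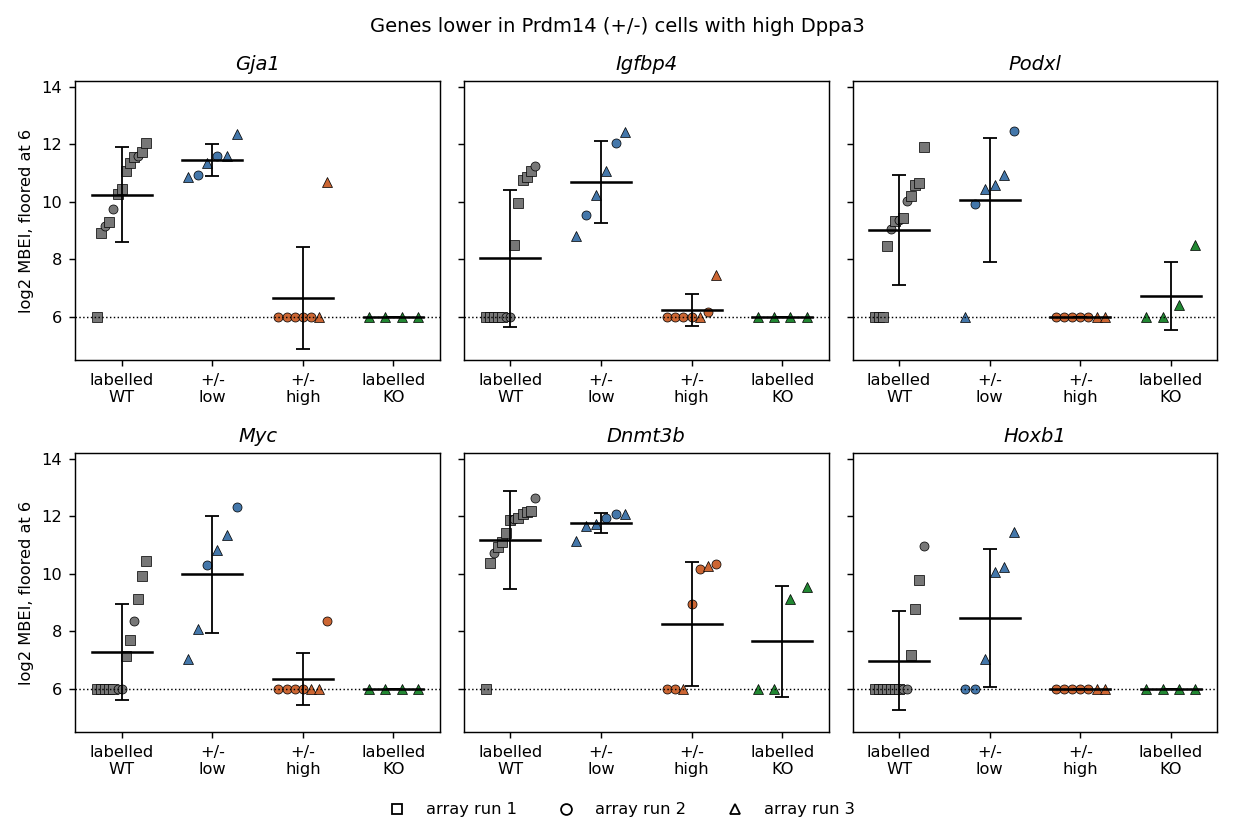
Level of 6 genes that were lower in the high *Dppa3* class, drawn as in the plot of higher genes (log2 MBEI, floor of 6 dotted, mean and SD between cells, symbols for the array run). *Gja1* is at the floor in 6 of 7 high cells, *Podxl* and *Hoxb1* in 7 of 7, and *Dnmt3b* lies at 10.34 or below in every high cell and at 11.15 or above in every low cell.

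The promoters of the 3 highest and 3 lowest of these genes are shown because these genes carry the ends of the ranking. Each is the run of 250 bases before the annotated start on the plus strand, from RefSeq on GRCm38.p6, and capitals mark a GC box (GGGCGG on either strand), a motif bound by SP factors.
Epcam (chr17:87635729-87635978): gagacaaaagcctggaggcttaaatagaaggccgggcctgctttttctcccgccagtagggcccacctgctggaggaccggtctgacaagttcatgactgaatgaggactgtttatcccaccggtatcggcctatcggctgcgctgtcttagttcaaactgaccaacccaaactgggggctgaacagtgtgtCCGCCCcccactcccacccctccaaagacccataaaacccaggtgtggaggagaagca
Cldn5 (chr16:18776597-18776846): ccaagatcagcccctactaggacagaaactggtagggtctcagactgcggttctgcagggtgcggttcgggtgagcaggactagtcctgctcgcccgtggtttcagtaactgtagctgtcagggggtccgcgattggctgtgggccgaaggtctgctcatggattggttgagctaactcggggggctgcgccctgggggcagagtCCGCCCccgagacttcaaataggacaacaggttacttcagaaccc
Sox2 (chr3:34649745-34649994): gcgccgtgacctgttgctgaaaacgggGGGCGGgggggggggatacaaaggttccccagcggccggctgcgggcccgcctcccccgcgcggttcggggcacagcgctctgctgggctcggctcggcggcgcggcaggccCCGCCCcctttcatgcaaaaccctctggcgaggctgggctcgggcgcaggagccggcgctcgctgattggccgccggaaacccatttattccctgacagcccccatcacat
Gja1 (chr10:56377050-56377299): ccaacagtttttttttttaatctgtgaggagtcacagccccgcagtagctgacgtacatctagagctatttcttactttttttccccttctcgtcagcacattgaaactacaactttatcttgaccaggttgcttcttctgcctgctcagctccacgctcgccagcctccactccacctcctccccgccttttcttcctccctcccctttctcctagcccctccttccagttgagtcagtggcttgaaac
Igfbp4 (chr11:99040994-99041243): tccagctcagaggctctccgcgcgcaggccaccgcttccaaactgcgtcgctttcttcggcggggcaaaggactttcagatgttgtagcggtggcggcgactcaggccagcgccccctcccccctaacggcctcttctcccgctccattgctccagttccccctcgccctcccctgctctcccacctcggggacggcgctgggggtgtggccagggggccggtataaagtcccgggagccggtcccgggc
Spin2c (chrX:153832043-153832292): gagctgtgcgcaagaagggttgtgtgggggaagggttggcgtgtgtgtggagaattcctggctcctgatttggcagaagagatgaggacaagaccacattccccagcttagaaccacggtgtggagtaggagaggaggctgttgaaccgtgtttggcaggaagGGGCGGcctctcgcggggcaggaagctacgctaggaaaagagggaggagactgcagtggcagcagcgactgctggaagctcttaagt
Of the 12 higher genes 8 were in the RefSeq table, and 8 of these held a GC box. So did 4 of the 7 lower genes found there, beside 32.9% of all 27025 promoters of the same length. Those promoters include genes without transcript in these cells, whereas the named genes were chosen with a mean of at least 8. The share among the tested genes was not computed, so these shares are not a like comparison. The motif GGTCTCTAA, the core of the PRDM14 motif, was in 0 of the 8 and 0 of the 7, beside 0.244% of all promoters. The octamer ATGCAAAT was also in 0 of either, beside 1.61%. GCCNNNGGC, a motif of TFAP2 factors, was in 0 of the 8 and 2 of the 7, beside 13.6%. All were searched on both strands, the GC box and the TFAP2 motif can share bases, and a match in such a window is a description, not a site.

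DNA methylation genes were split. *Dnmt3b*, the de novo methyltransferase of the epiblast, lay between 11.15 and 12.07 in the low cells. In the high cells it was 10.34, 10.28, 10.18 and 8.96 in 4 cells and listed at 0 in 3, so the classes did not overlap. The difference was -3.52, with -3.72 in run 2 and -3.51 in run 3, and a second, dimmer probe set gave -1.72. *Uhrf1*, which brings DNMT1 to replicating DNA, was 10.09 to 11.80 in the low cells and at the floor in 4 of 7 high cells, a difference of -3.18 that reached -4.81 in run 3. *Dnmt1*, the maintenance enzyme itself, was 11.33 and 11.67. The dioxygenase gene *Tet1* was 8.87 ± 2.19 (SD, n = 7) and 7.63 ± 1.91 (SD, n = 6), and *Tet3* was listed at 0 in all 13 cells. Of 12 genes tested in this list, 2 were lower by at least 2, 0 were higher by as much and the median difference was -0.08. Of all tested genes 3.16% were lower by at least 2.

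Among histone modifiers single genes passed 2. *Kdm3a*, an H3K9 demethylase, was the only 1 of 12 tested H3K9 genes past 2, with 10.63 ± 0.76 (SD, n = 7) in the high class and 8.07 ± 1.64 (SD, n = 6) in the low class. *Ehmt1*, a subunit of the H3K9 dimethyltransferase, differed by -1.98, and its partner *Ehmt2* by 0.40. *Kdm6a*, an X-linked H3K27 demethylase, was the only 1 of 15 tested Polycomb and H3K27 genes past 2, with a difference of -2.40. *Ezh2*, the H3K27 methyltransferase, was 11.10 and 11.84.

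Of 18 tested mesoderm genes, 16 had a lower mean in the high class. A lower mean was the commoner sign over all tested genes too, whose median difference was -0.10, and their share is not given here. The 5 genes *Hand1*, *Foxf1*, *Pdgfra*, *Cdx4* and *Wnt5a* were lower by at least 2, 0 were higher by as much, and the median difference was -1.56. *Hand1*, a factor of extraembryonic and lateral mesoderm, lay between 9.51 and 11.48 in the low cells and between 0 and 10.46 in the high cells, with cell 119 again the highest, and the difference was -3.42. *Foxf1*, a factor of the allantois and lateral mesoderm, was above the floor in 0 of 7 high cells and in 3 of 6 low cells. These 3, at 9.99, 11.97 and 11.16, were the low cells with *Dppa3* under 6. *Mixl1*, a primitive streak factor, was at the floor in every high cell and above it in 5 of 6 low cells. *Msx1* (11.43 and 11.70) and *Cdx2* (10.84 and 10.96) were near equal. The mesoderm score differed by more than its SD, 7.72 ± 0.43 (SD, n = 7) against 8.75 ± 0.47 (SD, n = 6), and the difference was -0.50 in run 2 and larger in run 3.

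Most *Hox* genes were at the floor in the high cells, except that *Hoxa5* was above it in 6 of 7, with a median of 7.15, *Hoxb3* reached 8.01 in 1 cell and *Hoxc6* 7.30. Of 9 tested, 9 had a lower mean in the high class and 3, *Hoxd9*, *Hoxb1* and *Hoxd1*, were lower by at least 2. Of all tested genes 3.16% were lower by as much. *Hoxd9*, *Hoxb1* and *Hoxb2* were at the floor in every high cell. Such genes counted as tested only through the low cells and could only be lower, so the count of signs is partly set by the filter. *Hoxd9* was listed at 0 in all 7 high cells and above the floor in 5 of 6 low cells, up to 11.02. *Hoxb1*, an early posterior gene, was above the floor in 4 low cells, all of run 3, so its difference was 0.00 in run 2 and -3.70 in run 3. The *Hox* score over 18 measured genes did not overlap, from 6.06 to 6.20 in the high class and from 6.22 to 7.60 in the low class. Among epiblast and ectoderm genes the neural and epiblast markers *Otx2*, *Fgf5*, *Sox1* and *Six3* were at the floor in all 13 cells. *Sox3* differed by 2.51 and *Krt8*, a simple-epithelium keratin, by -3.09. Of the 5 tested genes of this list 1 had a higher and 4 a lower mean in the high class, with a median difference of -1.77. The score of all 13 measured genes differed by -0.41, with a pooled SD between cells of 0.33.

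Of 13 tested WNT genes, 9 had a lower mean in the high class and 4 a higher one. For these and the BMP genes, too, a lower mean was the commoner sign over all tested genes (median difference -0.10). *Wnt5b*, *Wnt5a*, *Tcf7l1* and *Wls* were lower by at least 2, and 0 were higher by as much. Over all tested genes 3.16% were lower and 1.57% higher by at least 2. *Wls*, the carrier that WNT ligands need for secretion, was 9.17 ± 2.20 (SD, n = 7) and 11.20 ± 0.40 (SD, n = 6). *Axin2*, a target of canonical WNT signalling, was 11.03 and 11.02, and *Ctnnb1* (beta-catenin) 12.74 and 12.77. Of 13 tested BMP genes, 12 had a lower mean in the high class and the receptor *Bmpr2* and the transducer *Smad1* were lower by at least 2. *Bmpr2* was at the floor in 7 of 7 high cells and above it in 5 of 6 low cells, so it could only be lower. The targets *Id1* (11.49 and 11.97) and *Id3* (10.79 and 11.38) differed by less. The BMP score did not overlap, from 7.79 to 9.04 and from 9.08 to 9.51, although its difference was -1.17 in run 2 and -0.45 in run 3.

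FGF genes showed no common direction, since 6 of the 12 tested had a higher and 6 a lower mean in the high class. *Dusp6*, a phosphatase induced by FGF-ERK signalling, was the only 1 of 12 tested FGF genes past 2. It lay between 10.18 and 11.60 in the high cells, and in the low cells it was 11.11, 10.37 and 8.76 in the 3 with *Dppa3* from 8.07 to 9.85 and 0 in the 3 under 6. Of 9 tested Nodal and activin genes 7 had a lower and 2 a higher mean in the high class, and 0 were past 2 in either direction. A lower mean was the commoner sign over all tested genes too. The score of this list differed by -0.54, with a pooled SD between cells of 0.39. Its difference was -0.34 in run 2 and -0.49 in run 3.

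Of 18 genes of G1 and S phase, *Ccnd2*, *Ccnd1*, *Rrm2* and *Gins2* were lower by at least 2 and 0 were higher. Of all tested genes 3.16% were lower by as much. *Ccnd1* (cyclin D1) lay between 10.14 and 12.22 in the low cells and was at the floor in 4 of 7 high cells, and *Ccnd2* (cyclin D2) was 7.05 ± 1.39 (SD, n = 7) and 10.56 ± 1.57 (SD, n = 6). *Rrm2*, a subunit of ribonucleotide reductase, differed by -2.80. The helicase genes *Mcm2* to *Mcm7* differed by between -0.31 and 0.18, and *Pcna* was 12.67 and 13.08. Of 16 genes of G2 and M phase 0 were past 2 in either direction, and their score was 11.09 ± 1.71 (SD, n = 7) and 11.15 ± 0.59 (SD, n = 6). The wide spread of the high class came with cell 119, whose score was 7.25. The runs differed here, since the G1 and S phase score differed by -1.35 in run 2 and -0.27 in run 3, and the G2 and M phase score by 0.14 and -1.51. Whether the phases differ from each other was not tested.

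**Figure D3:**
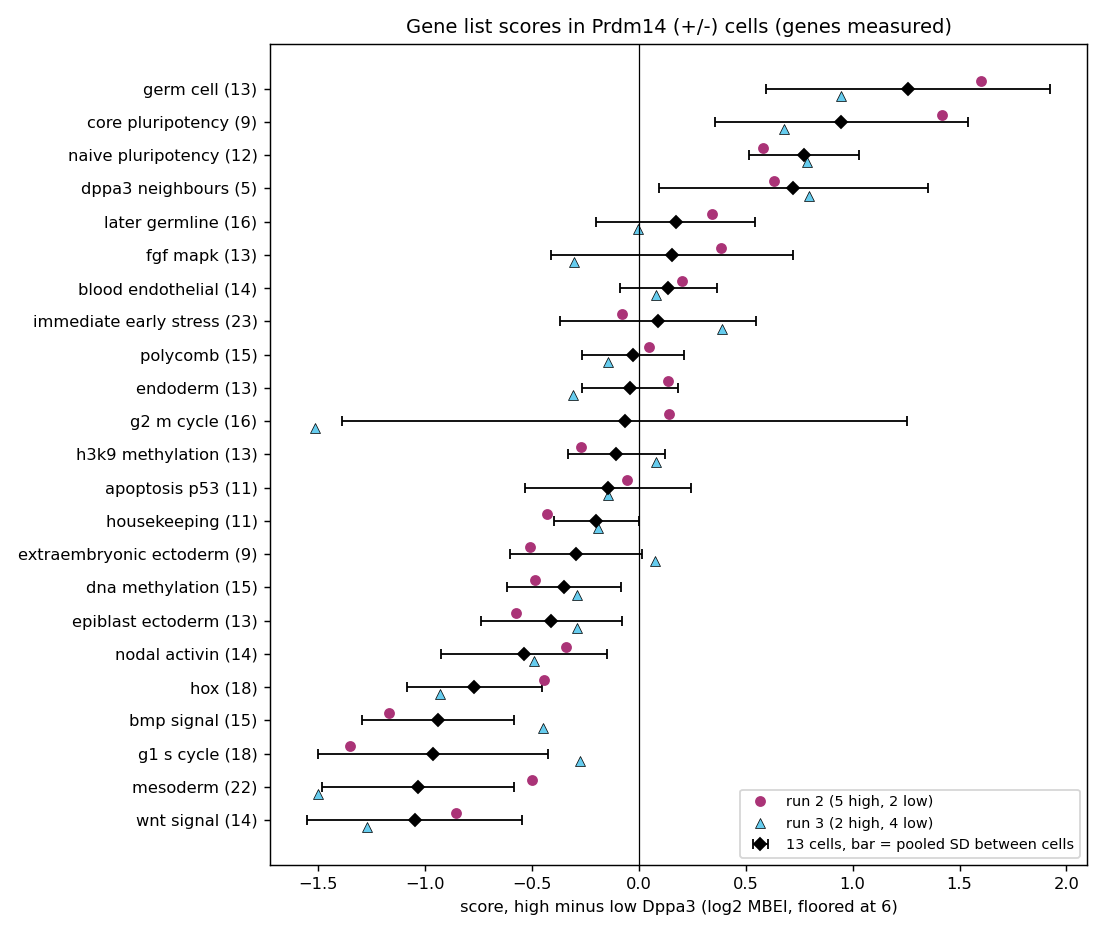
Difference in the mean level of each gene list between high and low *Dppa3* cells (log2 MBEI, floored at 6; the number of measured genes is in brackets). Diamonds are all 13 cells with the pooled SD between cells as bars, circles run 2 and triangles run 3; the germ cell list lies highest at 1.26 and the WNT list lowest at -1.05, and for the G2 and M phase list run 3 lies at -1.51 and run 2 at 0.14.

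Lists for other cell types of the region gave single genes. *Apoe* (2.14), *Lmo2* (2.49) and *Plac1* (-3.01) were the only members past 2 of 5 endoderm, 5 blood and endothelial and 3 extraembryonic ectoderm genes tested. Summed as scores, these lists ranged in the high class from 6.18 to 6.73, 6.37 to 6.79 and 6.00 to 7.17, and in the low class from 6.21 to 6.84, 6.06 to 6.85 and 6.61 to 7.11, all near the floor of 6. Of 5 tested later germline genes, which DNA methylation keeps silent, 0 were past 2. The housekeeping score was 12.07 ± 0.13 (SD, n = 7) in the high class and 12.27 ± 0.26 (SD, n = 6) in the low class, with *Gapdh* at 13.14 and 13.34. Immediate early and stress genes, which can rise during dissociation, had a score difference of 0.09, with *Myc* the only 1 of 16 past 2.

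The low class was not uniform. Its 3 cells with *Dppa3* from 8.07 to 9.85 differed in germ cell score from the high class by 0.53, and its 3 cells with *Dppa3* under 6 by 1.99. *Epcam* had a mean of 10.58 in the former and 6.00 in the latter, and *Tfap2c* 11.39 and 7.76. *Nanog* changed sign, with a difference of -1.78 from the former and 3.05 from the latter. *Dnmt3b* did not separate them, at 11.62 and 11.93, nor did *Klf2* and *Esrrb*, which were at 6.00 in both. Of the 12 higher genes, 5 were at the floor in every low cell and so were equal in the 2 subsets. The cells under 6 were nearer to the high class than the other low cells for 2 of the 12 higher genes and for 6 of the 12 lower genes. Cells were placed in these subsets by *Dppa3* alone. In low cells 78 and 100, *Nanog*, *Tfap2c* and *Epcam* were listed at 0. *Foxf1* was 11.97 and 11.16 there and *Hand1* 11.36 and 11.48. Other germ cell genes were above the floor in cell 78, with *Kit* at 10.49 and *Prdm14* at 8.97. Both cells were taken as PGCs by *Prdm1* cDNA, and whether they are PGCs was not tested.

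Cells of the other labels played no part in the split. Since the *Prdm14* transcript went against the labels WT and KO, an exchange of these labels cannot be told apart from a true difference here, and the values below are given by label, with no direction for the genotype. In the 4 cells labelled KO, all with *Dppa3* between 11.98 and 12.80, the mean lay nearer to the high than to the low class for 12 of 12 higher genes and for 9 of 12 lower genes. *Gja1*, *Igfbp4*, *Spin2c*, *Apela*, *Morc4* and *Myc* were at the floor in every cell labelled KO at the probe set read for each gene, and a second *Igfbp4* probe set was above it in 1 of these cells. The cells labelled WT, with *Dppa3* from 0 to 11.77, lay nearer to the high class for 3 of the higher and 4 of the lower genes. The share of all tested genes that lay nearer to the high class is not given here for either label. These counts therefore show nothing particular to the named genes. Within the 13 cells labelled WT, Spearman's rho with *Dppa3* had a median of 0.08 over the 12 higher genes, with a range from -0.60 (*S100pbp*) to 0.53 (*Abcg1*), and of -0.01 over the 12 lower genes, with a range from -0.61 (*Wnt5b*) to 0.43 (*Igfbp4*). Over all 9747 genes the median was -0.01, with quartiles of -0.22 and 0.21. These correlations are descriptions over cells that share array runs, 10 of the 13 from run 1, and no cell labelled WT reached 12 in *Dppa3*. All 4 cells labelled KO were of run 3.

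Both array runs held high and low cells, so the differences could be set side by side from separate cells. Across the 9747 genes, which are not independent replicates, the difference in run 2 (5 high and 2 low cells) and that in run 3 (2 high and 4 low cells) had a correlation of 0.17. Named genes were required to agree in sign between runs, so their place in the plot of the 2 runs is set by the rule. Of all genes tested, 119 (1.22%) were higher by at least 2 in all cells together and by at least 1 in each run, and 239 (2.45%) were lower by as much.

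**Figure D4:**
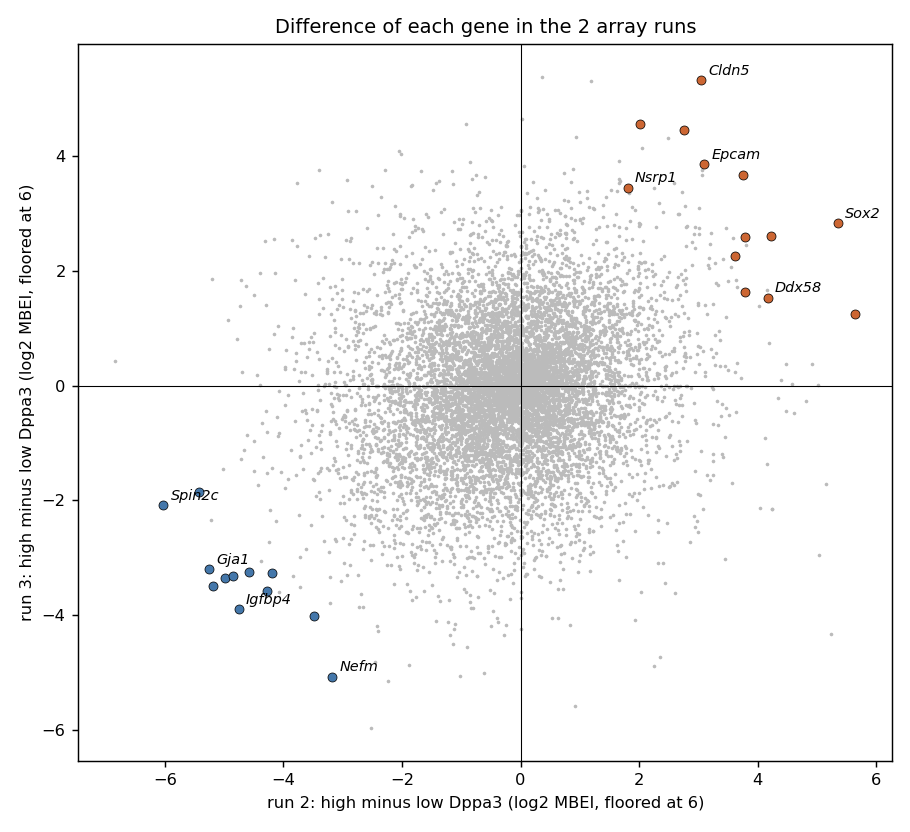
Difference between high and low *Dppa3* cells of each of 9747 genes in run 2 (x axis) and run 3 (y axis), both as log2 MBEI floored at 6. Orange points are the named higher genes and blue points the named lower genes, which the rule required to have the same sign in both runs; *Sox2* lies at 5.35 and 2.83 and *Gja1* at -5.26 and -3.20, and over all genes the correlation was 0.17.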

How the data were processed

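Amplified cDNA of single cells was hybridised to arrays, and the authors deposited log2 MBEI values per probe set, calculated with dChip 1.3. How arrays were scaled, and how values of 0 arose, was not given in the sources used here. Values were taken as deposited. Of 45101 probe sets, 34958 carried 1 gene symbol in the platform annotation (932 carried several and 9211 were not listed there). Each of 18194 genes was read from its brightest probe set by the mean of the 30 arrays. Values were floored at 6 and classes compared by differences of means, with no test, since no label ties a cell to an embryo. Genes above the floor in at least 3 of 13 cells were set against a difference of 2, with *Dppa3* left out. No 2 arrays held identical values. Array runs were read from the array codes.

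The members, the 24 gene lists and the rules were chosen with earlier results of these data known. Of 338 list genes, 21 were not found under their symbol. The text names list members, and also the 12 probe sets at each end of the ranking whose mean in the class with more transcript was at least 8, with at least 5 of 7 high or 4 of 6 low cells above the floor and a difference of the same sign and at least 1 within both runs. Alternatives were floors of 4 and 8, medians, single runs, the run as a block, quantile normalization, a shift to equal medians of the 4349 probe sets above 0 in all 13 cells, the mean over probe sets, no filter, a difference of 1, parts of the low class and leaving out each cell. The script was tested on simulated data. Scripts ran in Python 3.11.15 with matplotlib 3.10.9, pandas 2.3.3 and NumPy 2.4.6.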

Additional observations from a re-analysis of the deposited data

Results flagged for a closer look

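Single cells stood apart within their class in 8 of the 75 sets of values examined, by a gap to the nearest cell that was large for the range of the class. For independent values from a normal distribution the rule marks about 1 in 20. Values set to the floor, and single genes that also enter a list score, do not meet this. The 8 of 75 can therefore not be set against that rate. High cell 119 had a G2 and M phase score of 7.25, where the class median was 11.64, and *Tfap2c* at the floor of 6.00, where the median was 11.87. High cell 91 had *Prdm1* at 8.78 (median 11.12) and a score of 6.00 for sex-linked genes (median 7.24), that is, neither *Xist* nor a Y-linked gene above the floor. High cell 79 had the highest naive pluripotency score at 8.24 (median 7.55), and it also had the highest *Dppa3*. High cell 98 had the lowest *Prdm14* at 9.92 (median 11.15), and high cell 66, which had the fewest probe sets above 0, the lowest *Pou5f1* at 10.27 (median 11.75). Low cell 76, which had the highest *Dppa3* of its class, had the lowest mesoderm score at 7.81 (median 8.90). None of 36 results moved in opposite directions in every cell of the 2 runs.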

How the results depend on the processing

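Counts of genes depended on the setting. The 153 higher and 308 lower genes became 444 and 965 with a floor of 4, 16 and 41 with a floor of 8, 429 and 800 with medians over cells, 386 and 821 in run 2 alone, 443 and 625 in run 3 alone, 77 and 131 with the probe sets of each gene averaged, 325 and 503 with only the low cells under 6 in *Dppa3*, and 953 and 1526 where a difference of 1 counted. Smaller classes and a lower floor give larger differences by construction. Without each cell in turn they ranged from 148 to 196 and from 270 to 395. Chosen after seeing the data, leaving out the 3 high cells with under 35% of probe sets above 0 gave 269 higher genes, 125 of them shared, and 348 lower, 211 of them shared. Leaving out the 3 cells with *Xist* under 6, chosen likewise, gave 210 higher (110 shared) and 456 lower (233 shared). The *Dppa3* difference of 5.08 was 6.57 against the low cells under 6 and 3.59 against the others, by the choice of cells, and the germ cell score moved from 1.26 to 1.99 and 0.53. With a floor of 4 the scores were 1.06 for naive pluripotency, -1.49 for mesoderm, -1.30 for *Hox* and -1.32 for BMP genes, and with a floor of 8 -0.32 for *Hox* genes. In run 2 they were -0.50 for mesoderm, -0.44 for *Hox* and -0.43 for housekeeping genes. In run 3 they were -1.50 for mesoderm, -0.31 for endoderm, 0.0751 for extraembryonic ectoderm, -0.45 for BMP, -0.27 for G1 and S phase, -1.51 for G2 and M phase and 0.20 for sex-linked genes. The cause of the moves between runs was not tested. The other 295 of 312 list values stayed within 1 SD of cells, as did all 312 without 1 cell. Of 35 genes followed, the 30 with a difference of at least 2 kept their sign in every setting run, except that *Hoxb1* was 0.00 in run 2. Most of these 30 were named by a rule that required the same sign within both runs. Their sign in a single run was therefore set in advance, and their large differences also favour a stable sign elsewhere. No paired analysis was possible because cells of one class have no partner in the other class, and replicate numbers only follow accession order. With most probe sets listed at 0, a weak transcript cannot be told from an absent one, and 13 cells limit every mean.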
